A study of Rattus norvegicus with 12 samples.

Results

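The ganglion of deafened rats was followed from postnatal day 32 (P32) to P60, by setting the 3 P60 deafened libraries against the 3 P32 deafened libraries of the raw count table. These 6 of the 12 libraries of the study were fitted alone, over all genes with enough reads, which left 17116 of 32883 genes. Both groups were Sprague-Dawley rats injected intraperitoneally with kanamycin at 400 mg/kg once a day from P8 to P16, so the drug and the injections are shared. Age and the time since the injections differ together and cannot be told apart. Kanamycin is an aminoglycoside antibiotic that kills the sensory hair cells of the cochlea. The hearing groups, 3 libraries at P32 and 3 at P60, were littermates with no injection, and they appear below only for the same step in age. Each library held total RNA of the whole spiral ganglion, microdissected free of bone, spiral ligament and organ of Corti, with ribosomal RNA depleted, and was sequenced on 3 lanes. The design names the libraries of a group biological replicates; the sources used here do not give the number or sex of the animals behind each, and the p-values measure the spread between these libraries.

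The spiral ganglion holds the cell bodies of the auditory nerve. Its neurons are wrapped by myelinating Schwann cells and satellite glia and lie among macrophages, vessels and connective tissue inside the bony core of the cochlea. After hair cells are lost the neurons lose their peripheral partner, and over weeks to months many of them degenerate in rats. Nerve injury elsewhere is known to induce transcription factors such as Atf3, to shift Schwann cells from a myelinating to a repair state and to engage macrophages that clear debris. Because whole tissue was measured, fewer cells of a type and less RNA per cell cannot be told apart in any value below.

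The 6 deafened libraries held 15646405 to 43453272 counted reads, and levels are given as counts per 1000000 reads (CPM), where 1 CPM stands for 15.6 to 43.5 reads. P60 deaf replicate 3, the shallowest, stood apart. The first principal component of the 6 (44.2% of the variance) placed it at 48.9 and the others between -17.8 and -1.2, and its median correlation with the others, across genes on log2 CPM, was 0.981 against 0.988 to 0.992. The share of reads in cytosolic ribosomal protein genes was 1.49% there, 1.27% in P60 deaf replicates 1 and 2, and 1.14% to 1.19% in the P32 deafened libraries. Among hearing libraries P32 hearing replicate 3 stood apart: mitochondrial genes held 3.16% of the reads there and 1.3% to 1.64% in the other 11. Where the count of a gene list changes without P60 deaf replicate 3, both counts are given, and hearing values with and without P32 hearing replicate 3 where stated. Neuronal and Schwann cell genes were abundant in all 6 deafened libraries, Snap25 at 614 to 825 CPM and Mbp at 4647 to 7488 CPM. Of 26 hair cell genes in the table none was without a read in all 6 libraries. Calb2, which ganglion neurons also express, made up 72.8% of the summed level of that list.

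Between P32 and P60 some injury, repair glia and phagocyte genes rose in the deafened ganglion, and some myelin, cholesterol synthesis, bone and cartilage genes fell. By edgeR's quasi-likelihood test at a Benjamini-Hochberg adjusted p under 0.05, 208 of 17116 genes (1.22%) passed, 119 higher at P60 (0.695%) and 89 lower (0.52%). At an unadjusted p under 0.05 there were 2098. In all 208 the P60 libraries lay outside the range of the P32 libraries, while over all genes tested 1909 (11.2%) lay wholly higher and 1553 (9.07%) wholly lower. Fold changes ran from 1.33 to 17.8 among the risen genes and from 1.29 to 9.20 among the fallen, with 47 and 21 over 2-fold. The 17.8-fold rise was that of AABR07043395.1, a gene with no established name and a mean under 1 CPM at both ages, and the 9.20-fold fall that of Alox15. Left out of the fit, P60 deaf replicate 3 made way for 751 of 17378 genes (4.32%), 449 higher (2.58%) and 302 lower (1.74%), all 208 among them. List counts given below are to be read beside the shares over all genes. These are 0.695% higher and 0.52% lower with all 6 libraries, and 2.58% and 1.74% without P60 deaf replicate 3. The count fell to 21, 5 and 17 without P32 deaf replicates 1, 2 and 3, to 162 without P60 deaf replicate 1 and to 83 without P60 deaf replicate 2. Passing all 6 of these smaller fits were Alox15, Col11a1, Ibsp and LOC100361025, each lower at P60. Of the 208 genes 23 passed in at least 4 of them, and some named below, such as Gap43, Mbp and Pmp22, in only 1. Jun, Ngfr, C3, Ptprc and Mki67, which missed the threshold with all 6 libraries, passed in the fit without P60 deaf replicate 3 and in no other of these.

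**Figure D1:**
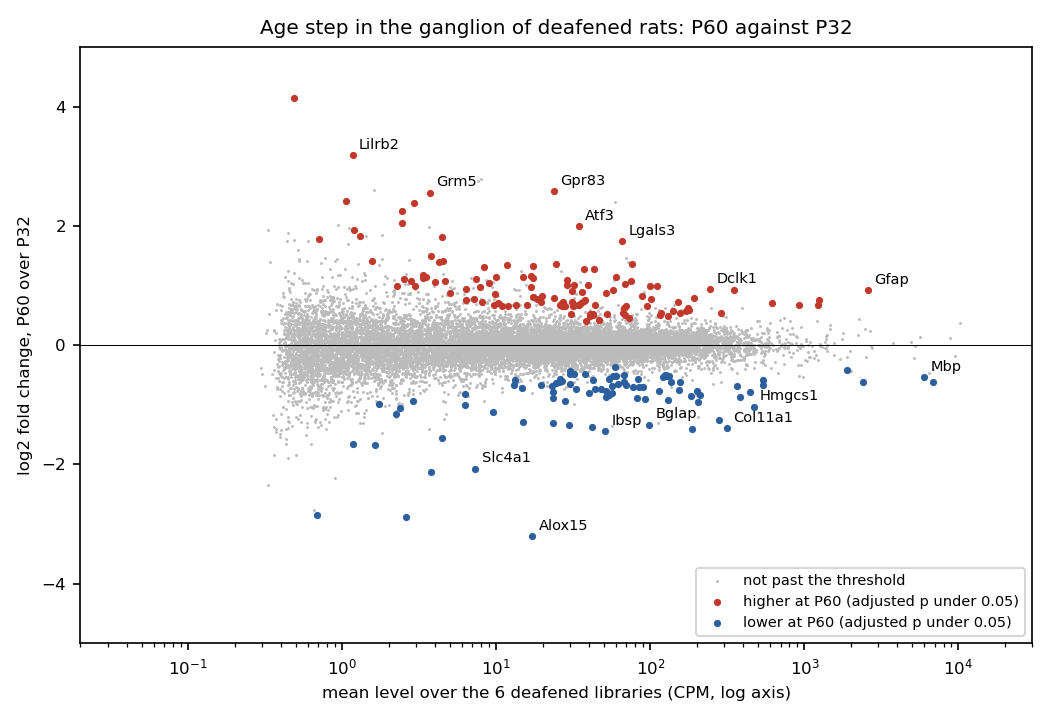
Each point is a gene tested in deafened rats, with its mean level over the 6 libraries (CPM, log axis) on the horizontal axis and its log2 fold change from P32 to P60 on the vertical axis. Red points (119) were higher and blue points (89) lower at P60 by edgeR's quasi-likelihood test; Gpr83, Atf3 and Lgals3 stand high among the risen genes and Alox15 stands lowest.

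A few genes known from injured axons rose. Atf3 (ENSRNOG00000003745), a transcription factor induced in neurons and Schwann cells after nerve injury, had 14.6, 11.4 and 15.3 CPM in the P32 libraries and 41.0, 63.1 and 60.5 CPM in the P60 libraries. The P60 libraries were all above the P32 libraries, and the 6 hearing libraries held 2.83 to 4.49 CPM at either age. The rise was 4.0-fold (log2 fold change 2.0 ± 0.18 SE, edgeR adjusted p = 0.00651). Of 24 tested genes of axon injury and regrowth 4 rose and none fell, beside 0.695% and 0.52% over all genes. The list had 17 members above 0, with 10 wholly higher and 2 wholly lower at P60, beside 11.2% and 9.07% over all genes. Its list median was 0.24 on the log2 scale against 0.00 for all genes tested, and without P60 deaf replicate 3 the count was 8 higher and 1 lower (median 0.16). Besides Atf3 they were Gadd45a, a growth arrest gene induced by stress (2.02-fold), Hspb1, a small heat shock protein of regrowing axons (2.23-fold), and Gap43, a growth cone protein. Gap43 went from 12.2 ± 1.34 to 19.4 ± 0.343 CPM (SD, n = 3 each), a 1.59-fold rise (edgeR adjusted p = 0.0270).

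Among 26 activity-regulated early genes, Atf3, Fos and Maff rose and none fell (list median 0.24; 5 higher and a median of 0.26 without P60 deaf replicate 3). Over all genes 0.695% rose and 0.52% fell. Fos, a subunit of the transcription factor AP-1, had 11.8, 13.6 and 12.2 CPM at P32 and 18.5, 26.3 and 21.2 CPM at P60, with no overlap (1.75-fold, edgeR adjusted p = 0.0377). Maff, a small Maf factor, rose 1.71-fold. Jun, the usual partner of Fos, had 65.0, 64.1 and 63.6 CPM at P32 and 86.1, 108 and 64.3 CPM at P60. Its P60 libraries overlapped the P32 range through replicate 3, and it did not pass (log2 fold change 0.43 ± 0.16 SE, edgeR adjusted p = 0.313; without P60 deaf replicate 3, 0.59 and 0.00472). Of 22 heat shock and dissection stress genes Hspb1 rose and none fell, with a median of 0.05 (4 higher and 0.10 without P60 deaf replicate 3).

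Since Fos and Atf3 belong to the family of factors that bind the AP-1 word TGANTCA, that word was searched in the promoters of the changed genes. RefSeq promoter windows on GRCr8 ran from 250 bases before to 50 after the gene start, and only the 250 bases before it were searched. Symbols with several windows were left out. The rest were matched by symbol for 82 of the 119 risen and 56 of the 89 fallen genes. The word, which reads the same on both strands, stood in 8 of the 82 (9.76%), 5 of the 56 (8.93%) and 4.66% of the 10421 tested genes with a window. The risen genes with it were Gpnmb, Dclk1, Mt2A, Itih2, Cxcl14, Ucn2, Pla2g7 and Olr1, and the fallen genes Mepe, Mal, Idi1, Msmo1 and Otor. The shares in risen and fallen genes lay close together, and a match is only a description of the letters. Printed below, on the strand of the gene and with the word in capitals, are the 250 bases before the start of 3 risen genes that are described further on. They are Gpnmb at chr4:79340878-79341127 on the plus strand, Dclk1 at chr2:141782634-141782883 on the plus strand, and Mt2A at chr19:10838709-10838958 on the minus strand.
Gpnmb: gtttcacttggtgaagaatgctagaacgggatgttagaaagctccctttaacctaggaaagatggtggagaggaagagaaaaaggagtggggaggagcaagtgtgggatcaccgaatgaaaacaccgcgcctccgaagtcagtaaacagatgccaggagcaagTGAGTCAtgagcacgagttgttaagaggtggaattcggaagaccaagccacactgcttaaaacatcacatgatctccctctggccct
Dclk1: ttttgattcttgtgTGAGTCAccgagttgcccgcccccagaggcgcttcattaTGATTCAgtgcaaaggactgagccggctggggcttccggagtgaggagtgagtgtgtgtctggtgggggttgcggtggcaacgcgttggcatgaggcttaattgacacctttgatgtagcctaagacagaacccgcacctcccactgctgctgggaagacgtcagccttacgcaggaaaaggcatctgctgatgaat
Mt2A: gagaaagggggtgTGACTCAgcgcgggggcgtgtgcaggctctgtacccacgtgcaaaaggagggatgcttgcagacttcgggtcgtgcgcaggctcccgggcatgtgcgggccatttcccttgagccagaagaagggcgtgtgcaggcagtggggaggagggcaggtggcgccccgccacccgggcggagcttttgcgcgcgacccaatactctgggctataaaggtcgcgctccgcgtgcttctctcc

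In Gpnmb the word begins 87 bases before the start, in Mt2A 237 bases before it, and in Dclk1 2 copies begin 236 and 197 bases before it. A pair of other words was searched on both strands; each holds TCA or TGA and so can share letters with an AP-1 match. The CLEAR element GTCACGTG, known from lysosomal genes, stood in 2 of the 82 risen (2.44%), 2 of the 56 fallen (3.57%) and 3.26% of all tested genes with a window. The sterol regulatory element word TCACNCCAC stood in 2 of the 82 risen (2.44%), 0 of the 56 fallen, 0 of 17 cholesterol synthesis promoters and 1.03% of all tested. At a share that low 17 windows would mostly hold no match, so the 0 does not show that such elements are absent.

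Several genes of nonmyelinating and repair glia rose. Gfap (ENSRNOG00000002919), the intermediate filament of reactive and nonmyelinating glia, had 1930, 1736 and 1683 CPM at P32 and 3056, 3752 and 3339 CPM at P60. Every P60 library lay above every P32 library, and the hearing libraries held 1236 to 1515 CPM. The rise was 1.89-fold (log2 fold change 0.92 ± 0.10 SE, edgeR adjusted p = 0.00771). Of 24 tested genes of nonmyelinating and repair glia 4 rose and none fell, beside 0.695% and 0.52% over all genes. The list median was 0.30, and 17 members were above 0. Without P60 deaf replicate 3 there were 10 higher and 1 lower, with a median of 0.26. The summed level of the list overlapped between the ages, at 12379.4 to 13753.7 CPM at P32 and 12824.5 to 14172.2 CPM at P60. The others were Vim, the filament vimentin, from 920 ± 4.39 to 1552 ± 180 CPM, Fabp7, a fatty acid carrier of immature glia, from 66.2 ± 2.98 to 133 ± 20.9 CPM, and Btc, the growth factor betacellulin, from 6.21 ± 0.78 to 13.6 ± 0.555 CPM. Ngfr, the p75 neurotrophin receptor of repair Schwann cells, had 38.8, 40.7 and 31.3 CPM at P32 and 74.3, 106 and 56.1 CPM at P60. Its groups did not overlap, yet it missed the threshold (2.13-fold, edgeR adjusted p = 0.0515), which it passed without P60 deaf replicate 3 (edgeR adjusted p = 0.00125). Among 29 neurotrophic factors and receptors Fgf2, fibroblast growth factor 2, rose 2.21-fold (5 higher in the list without P60 deaf replicate 3), and the neurotrophin receptors of the neurons did not pass, Ntrk2 with a log2 fold change of 0.13 and Ntrk3 with -0.13.

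Several phagocyte genes rose. Over 10 immune lists together 26 of 233 tested genes (11.2%) rose and 0 fell, beside 0.695% and 0.52% over all genes. Without P60 deaf replicate 3 there were 56 higher and 4 lower, beside 2.58% and 1.74% over all genes. The genes of phagocyte lysosomes and lipid handling gave 9 rises of 32 and no fall (median 0.32), and 15 higher and 1 lower without P60 deaf replicate 3 (median 0.28). Lgals3 (ENSRNOG00000010645), the lectin galectin-3 of activated phagocytes, had 29.6, 29.4 and 31.9 CPM at P32 and 74.0, 105 and 125 CPM at P60. The P32 libraries lay close together, all P60 libraries were higher, and the hearing libraries held 6.42 to 12.2 CPM. Lgals3 rose 3.33-fold (log2 fold change 1.74 ± 0.17 SE, edgeR adjusted p = 0.00651). Gpnmb, a glycoprotein of lysosome-rich macrophages whose promoter is printed above, rose 2.04-fold from 44.9, 45.4 and 45.0 CPM to 70.4, 100 and 106 CPM. Clec7a, the glucan receptor dectin-1, rose 2.17-fold, the lysozyme gene Lyz2 1.91-fold, and the lysosomal protease Ctss 1.64-fold. Mertk and Axl, receptors for the uptake of dying cells, rose 1.42-fold and 1.40-fold.

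The genes of macrophages gave 6 rises of 38 and no fall (median 0.34; 12 higher and a median of 0.28 without P60 deaf replicate 3). Their summed level was 757.6 to 770.9 CPM in the P32 libraries and 901.3 to 990.4 CPM in the P60 libraries. Itgam, the integrin chain CD11b, had 26.5, 23.7 and 25.3 CPM at P32 and 43.1, 50.1 and 48.2 CPM at P60, a 1.87-fold rise (edgeR adjusted p = 0.00651). Itgam also rose in hearing rats without P32 hearing replicate 3 (log2 fold change 0.64, edgeR adjusted p = 0.0156). Fcgr2b, an inhibitory antibody receptor, rose 2.53-fold. Csf1r, the receptor that macrophages need to survive, rose 1.46-fold from 126 ± 3.25 to 184 ± 11.7 CPM, and its ligand Csf1 rose 1.41-fold. Cx3cr1, the fractalkine receptor, rose 1.6-fold. The macrophage marker Cd68 did not pass, with overlapping groups and a log2 fold change of 0.23 (edgeR adjusted p = 0.639). Aif1, at 0.50, did not pass either (edgeR adjusted p = 0.150), although its P60 libraries (31.6, 30.3 and 41.7 CPM) all lay above its P32 libraries (25.5, 21.6 and 26 CPM). The pan-leukocyte gene Ptprc, at 0.49 with no overlap, missed the threshold with all 6 libraries (edgeR adjusted p = 0.0529) and passed without P60 deaf replicate 3 (edgeR adjusted p = 0.0132).

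Antigen presentation on class II molecules had the highest median of the 41 lists, 0.92, with 4 rises of 9 and no fall (5 rises and a median of 0.81 without P60 deaf replicate 3). Cd74 (ENSRNOG00000018735), the invariant chain, had 39.3, 49.9 and 55.5 CPM at P32 and 86.4, 105 and 115 CPM at P60, a 2.11-fold rise with no overlap (edgeR adjusted p = 0.0151). RT1.Da, RT1.Db1 and RT1.Bb, rat class II chains with near-identical copies that may split their reads, rose 2.13-fold, 1.97-fold and 2.07-fold. None of the 22 class I genes of the list and none of 43 interferon response genes passed in this fit, with medians of 0.22 and 0.14. Without P60 deaf replicate 3 these lists gave 3 and 2 higher genes, and 1 class I gene was lower. RT1.M2, a nonclassical class I gene outside the list, rose 3.81-fold (edgeR adjusted p = 0.0195).

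Of 30 complement genes Itgam, C4b and Clu rose (median 0.30; 12 higher without P60 deaf replicate 3). C4b, which has a near-identical copy in the genome, went from 8.96, 9.97 and 9.0 CPM to 20.1, 23.4 and 18.5 CPM (2.22-fold). C3, the central component, had 103, 105 and 116 CPM at P32 and 172, 197 and 133 CPM at P60, which did not overlap and missed the threshold (edgeR adjusted p = 0.0739; 0.000595 without P60 deaf replicate 3). C1qa, at a log2 fold change of 0.49 with no overlap, also missed it (edgeR adjusted p = 0.0648; 0.0243 without P60 deaf replicate 3). In hearing rats without P32 hearing replicate 3, C3 rose (log2 fold change 0.48, edgeR adjusted p = 0.0274). There C4b had a log2 fold change of 1.25 and did not pass (edgeR adjusted p = 0.0982). Among 28 chemokines and cytokines Cxcl14, Csf1 and Il1rn, the natural antagonist of interleukin 1, rose (5 higher and 1 lower without P60 deaf replicate 3). Of 16 tested T and NK cell genes Cd6 rose 2.09-fold (2 higher in the list without that library), from 2.57 ± 0.451 to 5.39 ± 0.991 CPM, and the list's summed level went from 54.3 to 63.2 CPM at P32 to 67.2 to 81.4 CPM at P60. Of 13 microglia-type genes Gpr34, a lysophosphatidylserine receptor, rose 1.77-fold, and 4 were higher without that library.

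Several of the largest rises were in genes outside these groups. Lilrb2, a leukocyte receptor of a family with close copies, went from 0.0943, 0.268 and 0.301 CPM to 2.54, 2.53 and 1.29 CPM (9.14-fold, edgeR adjusted p = 0.0112), and at these depths its P32 values rest on few reads. Gpr83 (ENSRNOG00000030318), a G protein-coupled receptor, had 6.36, 6.42 and 7.49 CPM at P32 and 25.9, 50.6 and 44.7 CPM at P60. Its lowest P60 library was above all P32 libraries, and no hearing library exceeded 1.22 CPM. The rise was 5.98-fold (log2 fold change 2.58 ± 0.24 SE, edgeR adjusted p = 0.00651). Grm5, a metabotropic glutamate receptor, rose 5.91-fold from 1.04 ± 0.288 to 6.35 ± 1.80 CPM, and Ucn2, the peptide urocortin 2, rose 4.76-fold. Below 10 CPM at P60 there also rose Tbx4, Slc7a9, Tmprss11f, Fgg and Acsm5, by 2.82-fold to 5.31-fold. Dusp10, a phosphatase of the stress kinases JNK and p38, had 13, 14.2 and 13.9 CPM at P32 and 31.1, 42.0 and 32.1 CPM at P60 (2.56-fold, edgeR adjusted p = 0.00651). The kinase Dclk1, which binds microtubules, rose 1.92-fold, the metallothionein Mt2A 2.43-fold, the calcium-binding protein S100a4 2.42-fold and the neural adhesion molecule Chl1 2.0-fold. Tf, the iron carrier transferrin, and Cp, ceruloplasmin, rose 1.59-fold and 1.62-fold.

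**Figure D2:**
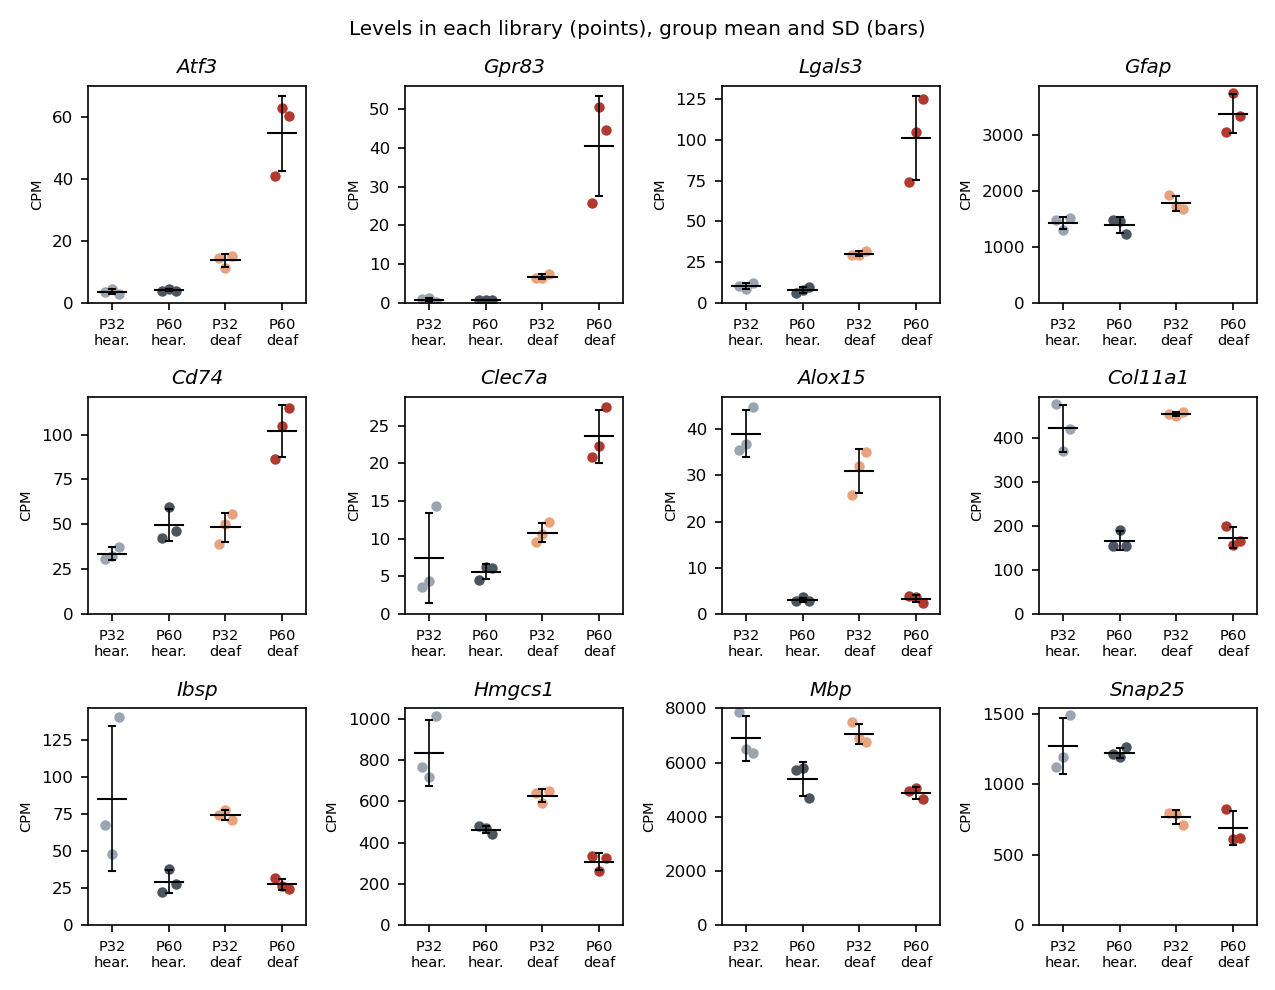
Levels of 12 genes in CPM (vertical axes start at 0) in each of the 12 libraries by group, with the mean and SD of each group of 3. Atf3, Gpr83, Lgals3 and Gfap are highest in the 3 P60 deafened libraries, Alox15, Col11a1, Hmgcs1 and Mbp are lower at P60 than at P32 in deafened rats, and Snap25 overlaps between the ages in both conditions.

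Several myelin genes fell. Mbp, myelin basic protein, had 7488, 6894 and 6777 CPM at P32 and 4951, 5070 and 4647 CPM at P60. All P60 libraries lay below all P32 libraries, and the fall was 1.44-fold (log2 fold change -0.53 ± 0.09 SE, edgeR adjusted p = 0.0279). Of 24 tested genes of myelinating Schwann cells 9 fell and none rose (median -0.43), beside 0.52% and 0.695% over all genes. Without P60 deaf replicate 3 there were 16 lower (median -0.39). Pmp22, a membrane protein of compact myelin, fell from 2882 ± 117 to 1893 ± 163 CPM. Ncmap, a protein of noncompact myelin, fell from 106, 107 and 103 CPM to 56.4, 63.1 and 52.5 CPM (1.84-fold, edgeR adjusted p = 0.00651). The enzymes that make myelin galactolipids fell too, Ugt8 1.6-fold and Fa2h 1.62-fold, as did the Schwann cell connexin Gjc3 (1.67-fold), Gldn, which gathers sodium channels at nodes (1.41-fold), and the raft protein Mal (1.5-fold). Of 18 central glia genes the oligodendrocyte genes Mobp and Mog fell (2 higher and 2 lower without P60 deaf replicate 3), Mobp from 606, 531 and 549 CPM to 299, 338 and 344 CPM and Mog from 104 ± 9.3 to 63.6 ± 1.77 CPM. The summed level of the central glia list was 6199.7 to 6729.7 CPM at P32 and 6737.1 to 7417.5 CPM at P60, with no member at 0.

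All 25 cholesterol synthesis genes had a log2 fold change below 0, and 22 were wholly lower at P60, beside 9.07% of all genes tested. By the test 10 fell and none rose (median -0.50), beside 0.52% and 0.695% over all genes. Without P60 deaf replicate 3 there were 18 lower (median -0.45). Hmgcs1 (ENSRNOG00000016552), the synthase that makes HMG-CoA, had 640, 594 and 650 CPM at P32 and 335, 261 and 325 CPM at P60. Its fall was 2.05-fold (log2 fold change -1.03 ± 0.11 SE, edgeR adjusted p = 0.00651). Along the pathway Idi1 fell 1.76-fold, Fdft1 and Sqle had log2 fold changes of -0.53 and -0.57, Lss of -0.52, and the demethylase Cyp51 fell 1.80-fold from 235 ± 14.7 to 131 ± 7.52 CPM. The later enzymes Msmo1 and Dhcr7 fell as well. Aacs, which supplies acetoacetyl-CoA for lipid synthesis, is outside the list and fell 1.67-fold. None of 24 genes of fatty acid and other lipid synthesis passed (median -0.04), and without P60 deaf replicate 3 there were 4 lower. Ch25h and Cyp7b1, enzymes of oxysterol metabolism, rose 1.6-fold and 1.53-fold.

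Several genes of bone and cartilage fell; bone had been dissected away. Of 23 tested genes of osteoblasts and osteocytes 9 fell (median -0.67; 3 higher and 13 lower without P60 deaf replicate 3). Of 19 cartilage genes 7 fell (median -0.63; 9 lower without that library). The share that fell over all genes was 0.52%. Col11a1 (ENSRNOG00000023148), a collagen chain of cartilage, had 456, 450 and 459 CPM at P32 and 200, 156 and 166 CPM at P60, a 2.62-fold fall (edgeR adjusted p = 0.00265). Ibsp (ENSRNOG00000002158), a bone matrix sialoprotein, had 74.5, 77.6 and 71.3 CPM and then 31.9, 26.1 and 24.7 CPM, a 2.7-fold fall (edgeR adjusted p = 0.00265). The P32 and P60 ranges of both genes lay far apart. Osteocalcin (Bglap) fell 2.52-fold, the collagens Col2a1 and Col1a1 2.63-fold and 2.40-fold, and Col22a1 2.44-fold. Acan, the proteoglycan aggrecan, went from 155, 171 and 184 CPM to 98.1, 90.0 and 81.0 CPM (1.90-fold). The summed level went from 3042.8 to 3244.7 CPM at P32 to 2214.4 to 2643.7 CPM at P60 for the bone list and from 1680.7 to 1854.3 CPM to 871.9 to 1027.8 CPM for the cartilage list, and no member of either was at 0. Spp1 made up 50.6% of the bone list's sum. How much bone or cartilage each dissection left was not tested.

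Some red blood cell genes fell too. The band 3 anion exchanger Slc4a1 had 11.9, 13.4 and 10.4 CPM at P32 and 2.72, 4.0 and 1.41 CPM at P60 (4.20-fold, edgeR adjusted p = 0.0140). Hbb fell 1.83-fold and the haem enzyme Alas2 1.72-fold. In all 3 of 16 erythroid genes fell, beside 0.52% over all genes (median -0.83; 6 lower and -0.81 without P60 deaf replicate 3). Haemoglobin took 0.0924% to 0.104% of the reads at P32 and 0.0425% to 0.0614% at P60, and its part in the other falls was not tested. Among genes of at least 1 CPM the largest fall was in Alox15 (ENSRNOG00000019183), a lipoxygenase of eosinophils and some macrophages, from 25.7, 31.9 and 35.0 CPM to 3.81, 3.64 and 2.45 CPM (9.20-fold, log2 fold change -3.20 ± 0.18 SE, edgeR adjusted p = 0.000843). Otor, the secreted inner ear protein otoraplin, fell 4.39-fold, the carbonic anhydrase Car3 2.60-fold, and the matrix protein Thbs1 2.52-fold. Lipi, Panx3, Hemgn and Upk1b fell from 6.61 CPM or less by 2.96-fold to 7.19-fold. Of 27 fibroblast and matrix genes Col1a1, Col5a2 and Sparc fell (median -0.14; 2 higher and 6 lower without P60 deaf replicate 3). Of 37 cell cycle genes Top2a fell 1.59-fold (1 higher and 2 lower without P60 deaf replicate 3). Mki67, another marker of dividing cells, had 23.4, 23.3 and 23.3 CPM at P32 and 18.5, 16.6 and 19.6 CPM at P60, with no overlap. It did not pass with all 6 libraries (edgeR adjusted p = 0.129) but did without P60 deaf replicate 3 (edgeR adjusted p = 0.0202).

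**Figure D3:**
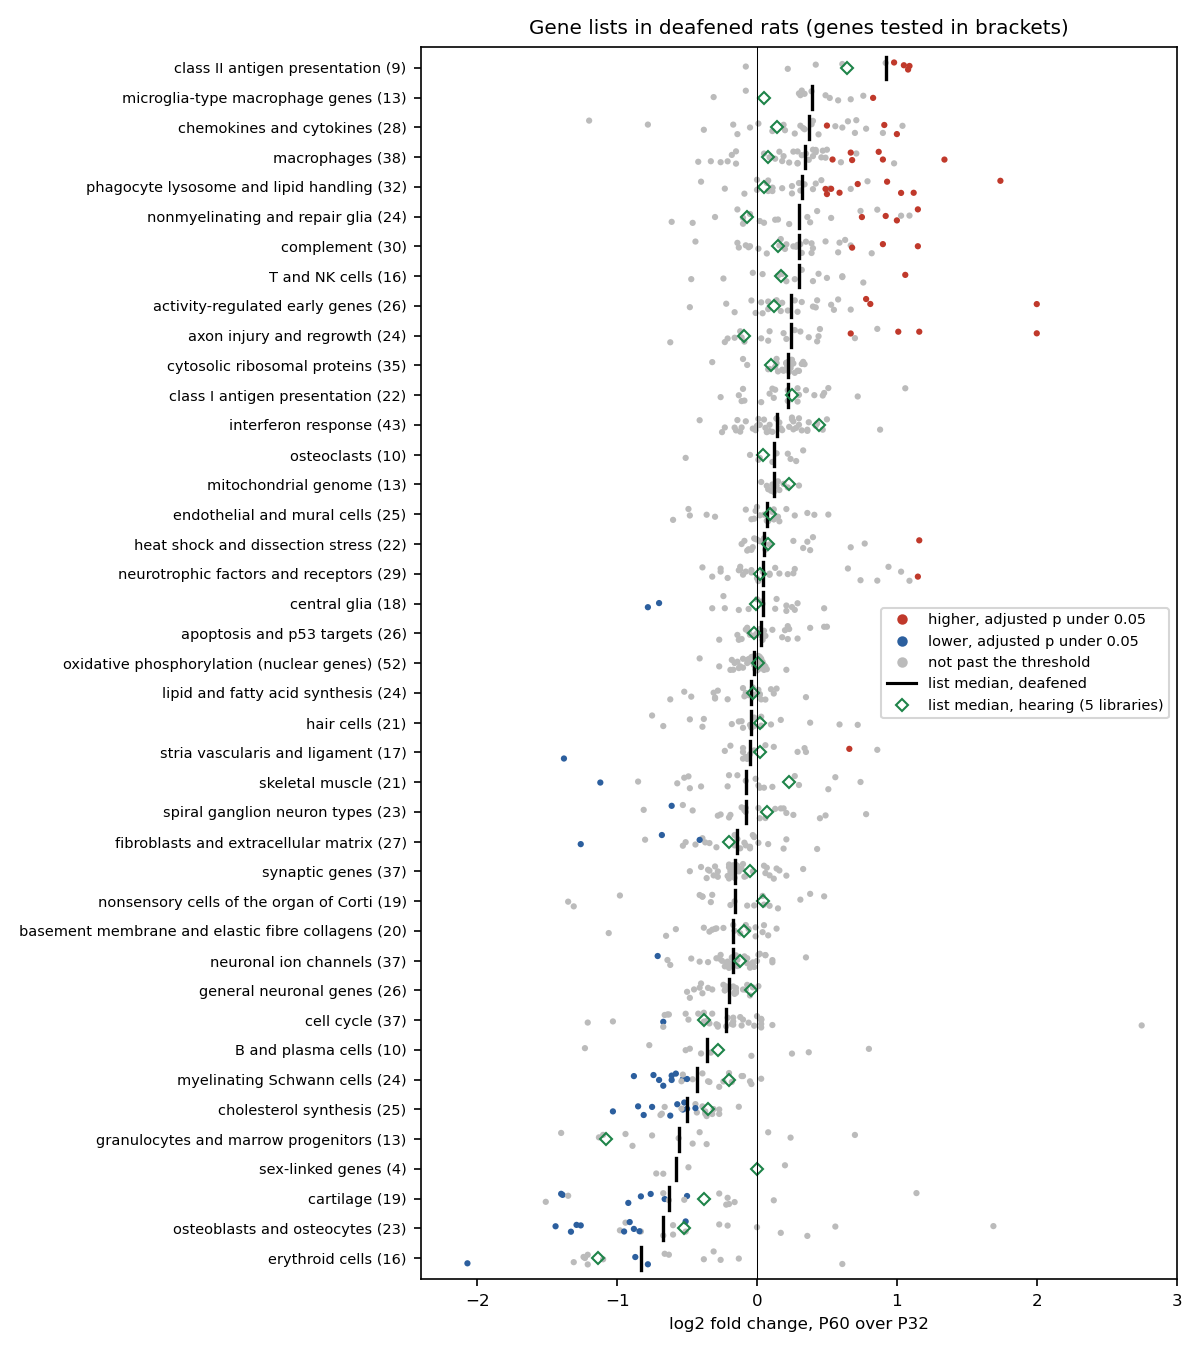
Log2 fold changes from P32 to P60 in deafened rats (horizontal axis) for the tested members of each of 41 gene lists (rows, number tested in brackets), with list medians for deafened rats (black bars) and for hearing rats without P32 hearing replicate 3 (green diamonds). Points past the threshold are red when higher and blue when lower; class II antigen presentation has the highest median (0.92) and erythroid cells the lowest (-0.83).

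Of 123 genes in 4 neuronal lists 0 rose and 2 (1.63%) fell, beside 0.695% and 0.52% over all genes. Wholly lower at P60 were 21 of the 123 (17.1%) and wholly higher 3 (2.44%), beside 9.07% and 11.2% over all genes. The median of each of the 4 lists was lowest in P60 deaf replicate 3 among the 6 libraries. Without that library 2 were higher and 4 lower, beside 2.58% and 1.74% over all genes in that fit. None of 26 general neuronal genes passed (median -0.20), and 25 of them were below 0. Snap25, a vesicle fusion protein, had 797, 791 and 709 CPM at P32 and 825, 614 and 619 CPM at P60. These values overlap, with the highest and the lowest both at P60 (log2 fold change -0.16 ± 0.12 SE, edgeR adjusted p = 0.692). The neurofilaments Nefl (-0.16, edgeR adjusted p = 0.663) and Nefh (-0.23, edgeR adjusted p = 0.400), the tubulin Tubb3 (-0.35, edgeR adjusted p = 0.362) and the nuclear protein Rbfox3 (-0.50, edgeR adjusted p = 0.624) did not pass either. Nefh and Tubb3 were wholly lower at P60, while Nefl and Rbfox3 overlapped. The median level of the list, relative to the mean of the P32 libraries on the log2 scale, was 0.02, -0.27 and -0.47 in P60 deaf replicates 1, 2 and 3. This spread within P60 was wider than the list's median change. Without P60 deaf replicate 3 the median fold change was -0.09 and again none passed.

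Of 23 genes that mark types of ganglion neurons Lypd1, a marker of one type I class, fell from 79.5, 77.3 and 85.8 CPM to 58.8, 51.7 and 48.6 CPM (1.53-fold, edgeR adjusted p = 0.0235), and without P60 deaf replicate 3 the list gave 1 higher and 1 lower. Calb2, calretinin, had 1296, 1195 and 1484 CPM at P32 and 1421, 1314 and 1730 CPM at P60, which overlap (edgeR adjusted p = 0.683). Slc17a7, the vesicular glutamate transporter, was wholly lower at P60 and did not pass (log2 fold change -0.26, edgeR adjusted p = 0.400). Of 37 ion channel genes the calcium channel Cacna1e fell from 18.2 ± 1.66 to 11.1 ± 1.51 CPM (1.63-fold, edgeR adjusted p = 0.0435). None of 37 synaptic genes passed (median -0.16). Of the ion channel and synaptic lists 8 members each were wholly lower at P60, beside 9.07% over all genes. Without P60 deaf replicate 3 the ion channels gave 1 higher and 2 lower and the synaptic list 1 lower. A difference that does not pass at 3 libraries a group does not show that levels were equal.

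No gene passed in the lists of apoptosis and p53 targets (26 tested, median 0.03), nuclear oxidative phosphorylation (52, -0.02), the mitochondrial genome (13, 0.12), cytosolic ribosomal proteins (35, 0.22), hair cells (21, -0.04), nonsensory cells of the organ of Corti (19, -0.16), endothelial and mural cells (25, 0.07), osteoclasts (10, 0.12), B and plasma cells (10, -0.36), granulocytes and marrow progenitors (13, -0.56), basement membrane collagens (20, -0.17) or sex-linked genes (4, -0.58). The summed level of the sex-linked list was 234.2 to 336.1 CPM at P32 and 207.4 to 219.8 CPM at P60, and its part in the results was not tested. Without P60 deaf replicate 3 there passed 1 higher in apoptosis and p53 targets, 3 higher and 2 lower in nonsensory cells, 2 higher and 2 lower in endothelial and mural cells, 1 higher and 5 lower in basement membrane collagens, 1 lower in B and plasma cells, and 1 each way in granulocytes. Over all genes that fit gave 2.58% higher and 1.74% lower. Of the 35 ribosomal protein genes 24 were wholly higher at P60 and 0 wholly lower, beside 11.2% and 9.07% over all genes. The median level of that list, relative to the P32 mean, was -0.02 to 0.04 at P32. At P60 it was 0.16, 0.17 and 0.35 in replicates 1, 2 and 3. The list's median fold change was 0.15 without P60 deaf replicate 3. Among 17 stria vascularis and ligament genes Met rose 1.58-fold and Car3 fell (2 higher and 1 lower without that library). Of 21 skeletal muscle genes Myl1 fell from 12.6, 10.7 and 16.2 CPM to 5.31, 7.35 and 5.28 CPM, and the list's summed level was 805.0 to 876.8 CPM at P32 and 729.9 to 873.0 CPM at P60.

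**Figure D4:**
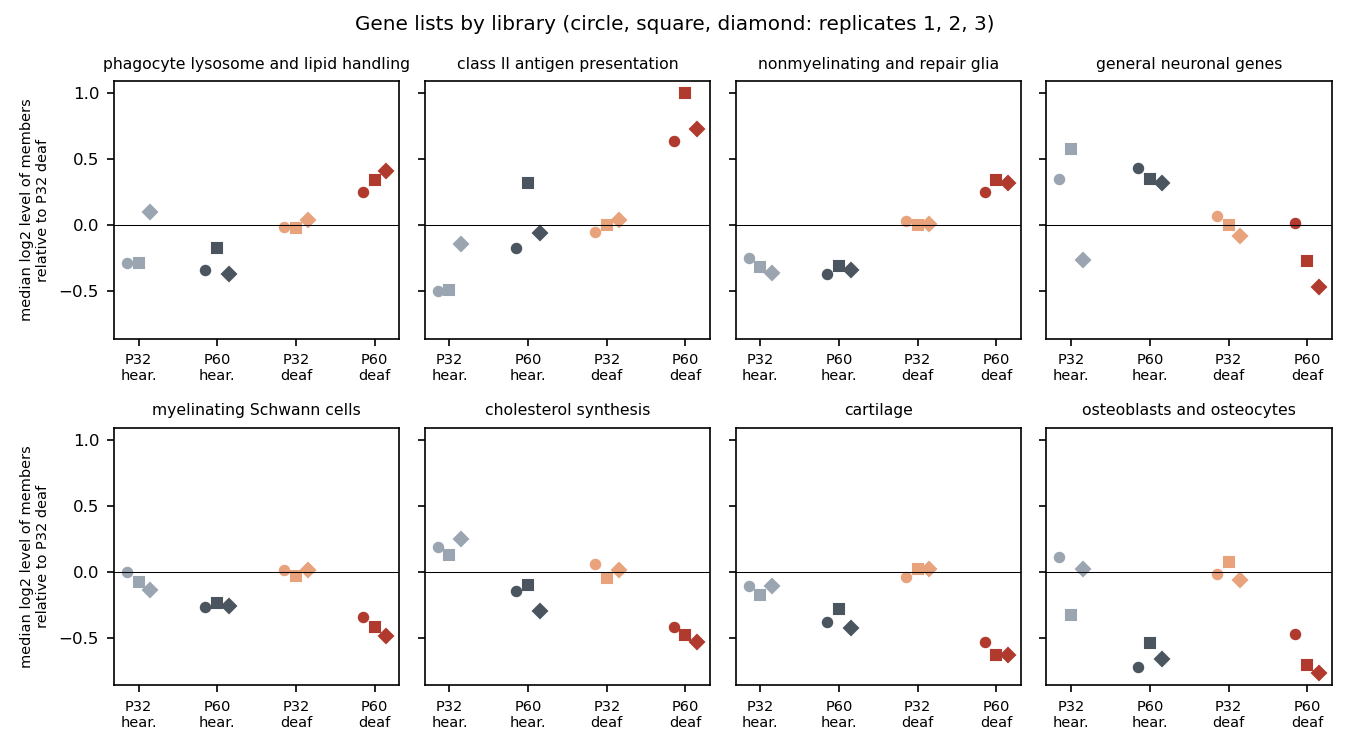
Median log2 level of the members of 8 gene lists in each library, relative to the mean of the 3 P32 deafened libraries (vertical axis), by group, with a symbol for each replicate number. The 3 P60 deafened libraries lie above the P32 deafened libraries for phagocyte, class II and repair glia genes and below them for myelin, cholesterol, cartilage and bone genes; for neuronal genes they spread from 0.02 to -0.47.

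The same step in age was read in hearing littermates, which share no library with the deafened comparison. With all 6 hearing libraries 1 of 17253 genes (0.0058%) passed, Alox15, and 707 did at an unadjusted p under 0.05. Without P32 hearing replicate 3 there were 170 of 17645 (0.963%), 39 higher (0.221%) and 131 lower (0.742%). The 5-library values are set beside the deafened ones here. Of the 89 genes that fell in deafened rats 46 also fell in hearing rats, with median log2 fold changes of -0.74 and -0.49, and 4 were at or above 0. Of the 119 that rose, 116 had a hearing value and 8 also rose, with medians of 0.87 and 0.18, and 25 were at or under 0. All these genes were picked by their deafened values, which by itself favours larger medians there, so the medians of both conditions are not on equal terms.

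Lists with several falls had medians below 0 in both conditions. Cholesterol synthesis had -0.50 in deafened and -0.35 in hearing rats (14 of 25 lower), osteoblast genes -0.67 and -0.52 (7 lower), cartilage -0.63 and -0.38 (6 lower), myelinating Schwann cells -0.43 and -0.20 (5 lower) and erythroid genes -0.83 and -1.14 (8 lower). Alox15 fell in hearing rats from 35.5, 36.7 and 44.8 CPM to 2.77, 3.60 and 2.77 CPM, much as in deafened rats. Phagocyte lysosome genes had medians of 0.32 and 0.05, macrophages 0.34 and 0.08, repair glia 0.30 and -0.07, and axon injury 0.24 and -0.09. Microglia-type genes had 0.39 and 0.05, and chemokines and cytokines 0.37 and 0.14. T and NK cell genes had 0.30 and 0.17, and complement 0.30 and 0.15 (3 higher in hearing rats). Class I genes had 0.22 and 0.25, and interferon response genes 0.14 and 0.44. Class II genes had 0.92 and 0.64, and Cd74 rose in both conditions. The differences between these medians were not tested.

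Gene by gene, the change with age in deafened rats minus that in hearing rats was tested in 1 fit. With all 12 libraries 0 of 17789 genes (0%) passed by edgeR, with 805 at an unadjusted p under 0.05 and 25 by DESeq2. Without P32 hearing replicate 3 there were 14 of 18057 (0.0775%), 13 with a higher change in deafened rats and 1, Acan, with a lower one. Of the 119 risen genes 12 were among them. Atf3 had a difference of 1.96 on the log2 scale (edgeR adjusted p = 0.0223), with log2 fold changes of 2.0 in deafened and 0.04 in hearing rats. Lgals3 differed by 1.95, Gpr83 by 3.05, Grm5 by 3.06 and Dusp10 by 1.37 (edgeR adjusted p = 0.0223, or 0.0228 for Gpr83). Gfap differed by 0.91 (edgeR adjusted p = 0.0475), with a log2 fold change of 0.00 in hearing rats. Acan differed by -1.04, and in the 5 hearing libraries of that fit it held 139 and 130 CPM at P32 and 142, 139 and 155 CPM at P60. With all 12 libraries the adjusted p of the 14 genes lay between 0.0756 and 0.692. In P32 hearing replicate 3 S100a4 stood at 45.9 CPM against 16.2 and 16.1 CPM in its group, and Fabp7 at 132 CPM against 50.7 and 44.1 CPM.

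**Figure D5:**
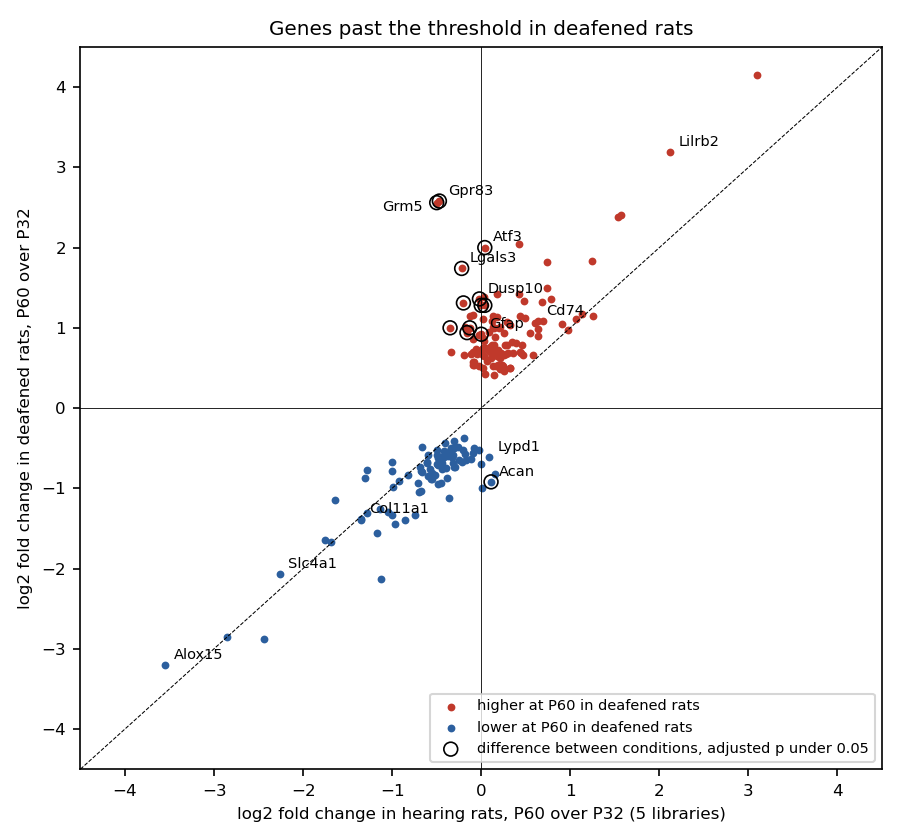
Log2 fold change from P32 to P60 in hearing rats without P32 hearing replicate 3 (horizontal axis) and in deafened rats (vertical axis) for the 205 genes past the threshold in deafened rats that were tested in both; the dashed line marks equal change. Fallen genes (blue) lie mostly below 0 on both axes, and most circled genes, whose difference between conditions passed without that library, lie near 0 in hearing rats.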

How the data were processed

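The raw count table that the authors deposited holds whole reads per Ensembl gene for 12 libraries, lanes summed per the file headers. A second deposited table holds a signal normalized by the authors to 1 size factor per library. Its whole reads, recovered for 100% of values within 0.1, paired all 21829 symbols with 1 gene ID each. Per the submitters' processing notes the tools were DESeq2 1.32.0, featureCounts, Subread 1.6.3, SAMtools, Trimmomatic, STAR 2.7.0b and bcl2fastq 2.20. The sources used here do not give genome build, annotation or strandedness, so reads of overlapping antisense genes cannot be told apart.

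Genes were kept by filterByExpr and scaled by TMM, and the 6 deafened libraries were fitted alone with edgeR 4.0.16 (quasi-likelihood, two-sided, Benjamini-Hochberg adjusted p under 0.05). The SE is the size of the log2 fold change over the square root of F. Levels are CPM scaled by TMM over 12 libraries, so their ratio can differ slightly from the fold. The 6 hearing libraries were fitted alone, and the difference of the age steps in all 12. Medians of lists are over tested members (978 of 1133 members in 41 lists; some genes are in several). No replicates agreed within sampling noise.

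Named genes were the 12 largest rises and 12 largest falls past the threshold with no overlap, a symbol and at least 1 CPM in the higher group, up to 4 members per list, 27 genes whatever their p, and the 14 of the difference test. Some genes that the rule names are left out of the text. Other named genes were chosen after their values were seen, as was the sterol word. Comparison, lists and rule were chosen with earlier results of these data known.

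Alternatives were other normalizations, filters, DESeq2 1.42.0, limma 3.58.1 (voom, and the authors' signal as log2 with a pseudocount of 1), 11-library and 12-library fits, a replicate block, recovered reads and leaving out each library. The pipeline was tested on simulated data. Figures used matplotlib 3.10.9, numpy 2.4.6 and pandas 2.3.3 in Python 3.11.15.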

Additional observations from a re-analysis of the deposited data

Results flagged for a closer look

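The change with age differed between deafened and hearing rats in 14 genes when P32 hearing replicate 3 was left out of the test of the difference, and in none by edgeR with all 12 libraries. Of these, 13 had the higher log2 change in deafened rats. They were Grm5 (3.06), Gpr83 (3.05), Atf3 (1.96), Lgals3 (1.95), Glipr2 (1.5), Dusp10 (1.37), Chl1 (1.35), S100a4 (1.27), Mt2A (1.23), Fabp7 (1.12), Dclk1 (1.10), Gfap (0.91) and Plk2 (0.86). Acan had the lower change (-1.04). The edgeR adjusted p lay between 0.0169 for Dclk1 and 0.0475 for Gfap. Plk2, a kinase regulated by activity, is the member that did not pass in deafened rats alone. It had 34.3, 33.6 and 33.7 CPM at P32 and 38.4, 42.1 and 44 CPM at P60 in deafened rats (edgeR adjusted p = 0.159), and 22.5 and 25.8 CPM and then 16, 16.9 and 15.8 CPM in the hearing libraries used.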

How the results depend on the processing

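The count of 208 genes (119 higher, 89 lower) depended on the libraries and the fit more than on the scaling. It was 557 (330 higher, 227 lower) with 11 libraries in the fit, 49 (31 and 18) with all 12, 552 (332 and 220) by DESeq2 and 362 (227 and 135) with no filter on low counts. Leaving out 1 library gave 5 to 751 genes, 1 to 449 higher and 4 to 302 lower. Other normalizations, a stricter filter, voom, the authors' signal and the recovered reads stayed within 1.5 times of 208, as did the fit with a replicate block, with 255. The deviations of same-numbered libraries of both ages correlated at 0.05, 0.16 and 0.18, and 1 library of 6 did not match its own number best. Whether the numbers pair the libraries was not tested, and the main fit used no pairing. In hearing rats leaving out 1 library gave 0 to 170 genes, 0 to 39 higher and 0 to 131 lower, and the replicate block gave 0. For the difference between conditions leaving out 1 library gave 0 to 14 genes, DESeq2 25, and leaving out both P32 hearing replicate 3 and P60 deaf replicate 3, an alternative chosen after seeing the data, gave 47. Of the 87 named genes past the threshold none changed direction in any setting run and 34 stayed past it in all settings other than leaving out a library. The cause of these shifts was not tested. Depth limits genes near 1 CPM, which rest on as few as 15.6 reads.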
